A study of Rattus norvegicus with 62 samples.

Results

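The long-term effect of blast exposure on the amygdala was examined in 28 male Long Evans rats of the chronic cohort, among 62 animals sequenced in all. Animals were taken by their sample labels, which gave 14 chronic blast and 14 chronic sham rats. Blast animals had been placed under anesthesia in a shock tube and had received 3 blast overpressure exposures at 74.5 kPa, given 24 h apart. Sham animals underwent the same handling without the exposures. All were 10 to 12 weeks old and weighed 250 to 300 g when they entered the study, and the chronic cohort was kept for 12 to 14 months afterwards, passed through the behavioral battery and was then killed for tissue collection. RNA came from both hemispheres, from punches of 1.50 mm through the central and basolateral amygdala, with 1 library per animal. The sub-acute cohort, with 17 sham and 17 blast animals at 1 to 1.5 months after exposure, served for comparison.

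The amygdala assigns threat value to sensory signals. Its basolateral nuclei, built mainly of excitatory projection neurons with local inhibitory interneurons, relay to the central nucleus, a mostly GABAergic structure that drives autonomic and freezing responses. Blast overpressure passes a pressure wave through the brain without a penetrating wound, and is used to model the mild brain injury seen in military personnel. A punch of this region mixes neurons, astrocytes, oligodendrocytes, microglia and vessel cells. In such tissue a lower level of a transcript in a group may reflect fewer cells of a type or less RNA per cell, and these cannot be told apart. The count table identified genes by Ensembl ID and none of the 32545 IDs could be paired with a symbol here. Cell type markers were therefore not checked, and only the 2 genes with the smallest p in each direction are given by ID.

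Sequencing depth overlapped between the groups. Totals ran from 18220986 to 51769475 counts in chronic blast animals (median 37460121) and from 20582780 to 50570146 in chronic sham animals (median 42328495). The mean log2 total was 25.16 ± 0.39 (SD, n = 14) in blast and 25.25 ± 0.31 (SD, n = 14) in sham, a difference of -0.09 that was not past the spread between animals (two-sided permutation test, p = 0.535, and 0.850 after adjustment over the 7 library measures). Genes with at least 1 count numbered 19583 ± 520 (SD, n = 14) in blast and 19615 ± 388 (SD, n = 14) in sham libraries (p = 0.850, adjusted p = 0.850, same permutation test). The 10 most abundant genes of a library took 6.69% ± 1.87 (SD, n = 14) of its counts in blast and 7.50% ± 1.35 (SD, n = 14) in sham (permutation test p = 0.200, adjusted p = 0.702).

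4 libraries stood apart from the rest, and they were split evenly between the groups. These were chronic blast animals CB111 and CB149 and chronic sham animals CS115 and CS144, which had the lowest median correlations with the other chronic libraries, all others lying at 0.970 or above. Animals CB149 and CS115 had correlations of 0.928 and 0.932 and were also the 2 libraries under 25000000 counts, with 18220986 and 20582780. Animals CB111 and CS144, both at 0.961, had 32619322 and 44337306 counts, so the departure was not restricted to shallow libraries. In these 4 libraries the 10 most abundant genes took between 4.54% and 5.35% of the counts, a share that CB121 (5.18%) and CB147 (3.64%) matched or undercut. PC1, the leading principal component of the chronic libraries with 31.3% of the variance, ran from -110.8 to -51.2 in the 4 libraries. The next lowest was CB147 at -32.8, and all other libraries lay between -0.75 and 28.1.

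**Figure D1:**
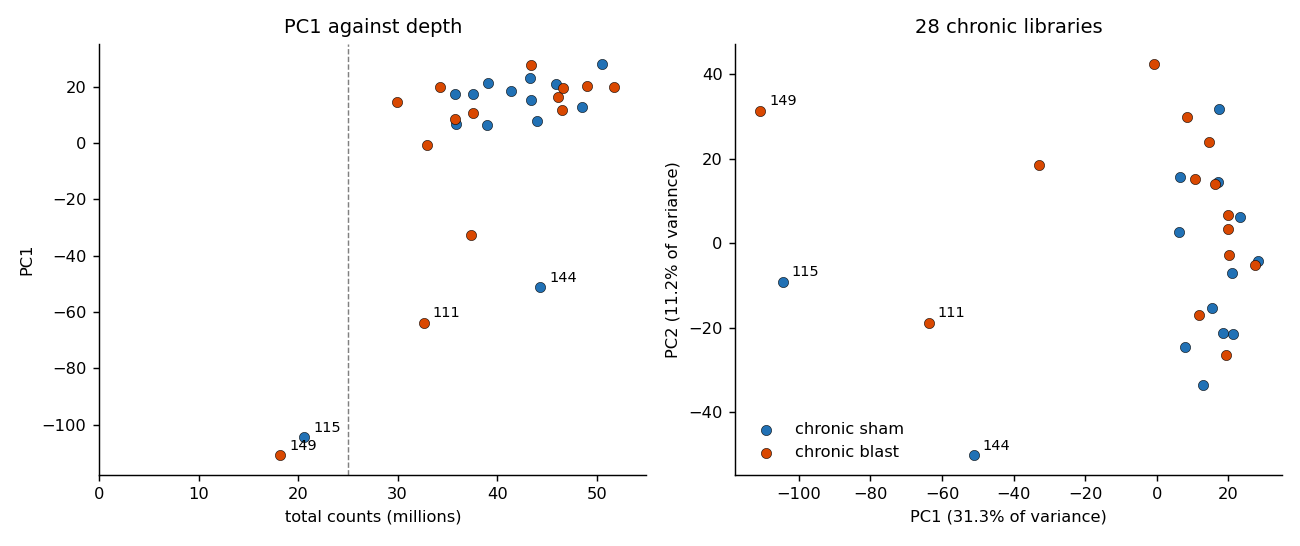
Left, score on PC1 against total counts for each of the 28 chronic libraries, with a dashed line at the limit of 25000000 counts. Right, PC1 against PC2. Blue points are chronic sham and orange points chronic blast animals, and the 4 libraries that stood apart carry their animal numbers, with PC1 from -110.8 to -51.2 against -32.8 or more in the others.

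None of the first 3 principal components separated blast from sham. The mean PC1 score was -2.83 ± 39.7 (SD, n = 14) in blast and 2.83 ± 36.3 (SD, n = 14) in sham (permutation test p = 0.694, adjusted p = 0.850). PC2, with 11.2% of the variance, had a mean of 8.25 ± 20.6 in blast and -8.25 ± 21.7 in sham (permutation test p = 0.051, adjusted p = 0.359), and ranged from -26.4 to 42.6 in blast and from -50.2 to 31.8 in sham, so the groups overlapped over most of their range. PC3, with 9.72% of the variance, differed by 1.90 (permutation test p = 0.811, adjusted p = 0.850). All 3 components varied with depth by rank. Among the 24 libraries that did not stand apart, the Pearson r of PC2 with log2 total counts was -0.668 (permutation p = 0.00048, adjusted p = 0.00144 over 3 components) and Spearman rho was -0.705 (p = 0.00024, adjusted p = 0.00072). Without the 2 libraries farthest from the median depth, r was -0.579. For PC3 r was 0.478 (permutation p = 0.0179, adjusted p = 0.0268) and rho 0.430 (p = 0.0353, adjusted p = 0.0353), with r at 0.391 without the 2 farthest libraries. For PC1 r was 0.377 (permutation p = 0.0738, adjusted p = 0.0738) and rho 0.463 (p = 0.0252, adjusted p = 0.0353), with r at 0.374 without the same 2.

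To ask which genes differed a year or more after exposure, the counts were fitted with voom in limma, the method the study names. In chronic blast compared to sham animals, 413 of 16535 genes tested passed a fold change of 1.2 with a raw p under 0.05. These are 2.50% of all genes tested. 189 were higher in blast (1.14%) and the others were lower (1.35%). None (0%) passed Benjamini-Hochberg adjustment in limma, where the smallest adjusted p was 0.901, and none did so with edgeR's quasi-likelihood test (smallest adjusted p = 0.0641) or DESeq2 (0.310). On raw p alone, 833 genes were past 0.05, or 5.04% of those tested. Of these, 393 were higher in blast (2.38% of genes tested) and 440 lower (2.66%). In no gene (0%) did all blast animals lie above or below all sham animals.

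Differences were small. The median absolute log2 fold change was 0.08 over all genes tested and 0.47 over the 413 genes, whose values ran from -2.01 to 1.65. The median standard error was 0.11, with 0.05 at the 5th and 0.40 at the 95th percentile of genes. A limit on what could have gone undetected comes from the 95% interval of each gene's fold change. This interval rests on a spread estimated over all 62 animals, the sub-acute ones included, and not on the 28 chronic animals alone. It lay wholly within a 1.2-fold change in either direction for 6511 genes (39.4%), within 1.5-fold for 12752 (77.1%) and within 2-fold for 15178 (91.8%). For most genes a difference of 2-fold or more between the group means thus lay outside the interval.

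The genes past both thresholds were concentrated at low expression. Of the 4134 genes in the lowest quartile of expression, with mean log2 CPM (counts scaled to a common library total) up to 1.34, 5.06% passed both thresholds, 99 of them higher in blast and 110 lower. The second quartile held 102 (2.47%), the third 50 (1.21%) and the highest, from a mean log2 CPM of 5.72, held 52 (1.26%). The standard error fell over the same range, with medians of 0.27, 0.12, 0.09 and 0.08. Without the fold threshold the shares were 5.15%, 4.62%, 4.65% and 5.73%, so among these quartiles the concentration at low expression was seen only with the fold threshold. Of the 100 most abundant genes, 3 passed both thresholds, 1 higher and 2 lower, and 8 had a raw p under 0.05.

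**Figure D2:**
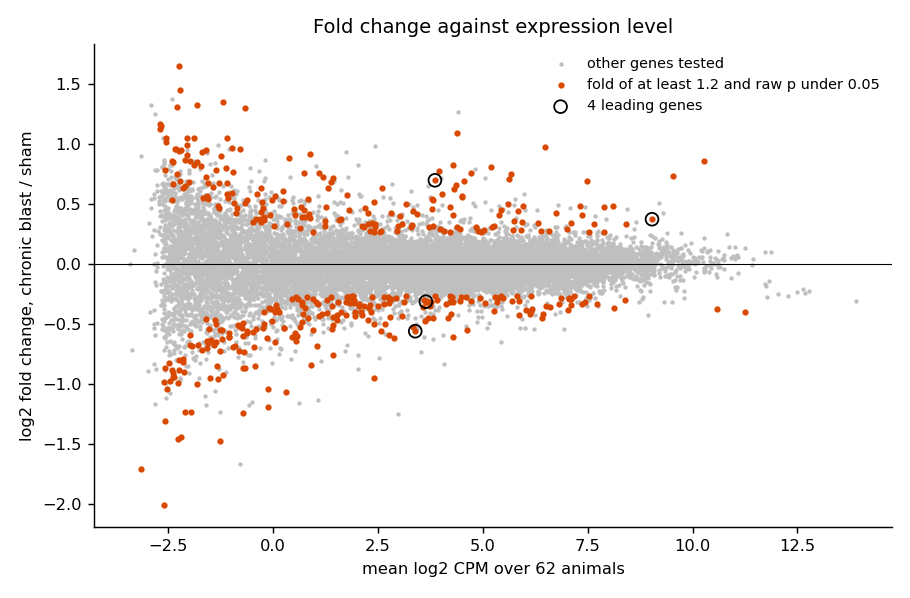
Log2 fold change of chronic blast over chronic sham against mean log2 CPM for the 16535 genes tested. Orange points are the 413 genes past a fold of 1.2 with a raw p under 0.05, and open circles mark the 4 leading genes. The spread widens at low expression, where 5.06% of the genes in the lowest quartile are orange, against 1.26% in the highest.

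ENSRNOG00000017060 had the smallest p among genes past both thresholds and higher in blast. It was strongly expressed, with a mean log2 CPM of 9.03, in the highest quartile. It ranged from 450 to 950 CPM (median 628) in chronic blast animals and from 341 to 647 CPM (median 451) in chronic sham animals. 13 of 14 blast animals lay above the sham median and 6 above every sham animal, with animal CB121 the highest. The groups overlapped between 450 and 647 CPM, and the sham animals below their median lay under every blast animal. The log2 fold change was 0.37 (SE 0.10), a 1.30-fold difference with a 95% interval from 1.13 to 1.49 (limma p = 0.0003977, adjusted p = 0.901). At the sub-acute time-point the medians were 489 CPM in blast and 486 CPM in sham animals, and the log2 fold change was -0.003 (SE 0.09). With surrogate variables, unmeasured factors estimated from the expression data, in the model, the chronic log2 fold change was 0.07 (p = 0.0507 in limma), which is under the fold threshold.

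ENSRNOG00000054809 was the next by p among genes past both thresholds and higher in blast. It ranged from 11.6 to 51.1 CPM (median 18.7) in chronic blast and from 4.85 to 27.9 CPM (median 13.1) in chronic sham animals. 11 of 14 blast animals exceeded the sham median and 4 exceeded every sham animal. Among those 4 were animals CB147 and CB149, at 51.1 and 49.9 CPM, and the highest sham value, 27.9 CPM, was in animal CS115. CB149 and CS115 are the shallow libraries, and CB147 had the lowest PC1 score of the libraries not counted as apart. Its log2 fold change was 0.70 (SE 0.20), a 1.62-fold difference with a 95% interval from 1.23 to 2.14 (limma p = 0.0009538, adjusted p = 0.901). Without the 4 libraries the log2 fold change was 0.68. Fitted on the chronic animals alone it was 0.70, with a larger limma p of 0.005605 (adjusted p = 0.999). With surrogate variables it was 0.33 and with sample quality weights 0.46, both with a raw p under 0.05. Sub-acutely the log2 fold change was 0.11 (SE 0.18).

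ENSRNOG00000012630 had the smallest p of any gene past both thresholds. Its level ran from 6.94 to 12.9 CPM (median 10.6) in chronic blast animals and from 11.0 to 17.0 CPM (median 12.9) in chronic sham animals. 13 of 14 blast animals lay below the sham median and 11 lay below every sham animal. The lowest blast value was in animal CB149 and the highest sham value in animal CS144, both among the libraries that stood apart. The log2 fold change was -0.31 (SE 0.08), a ratio of blast to sham of 0.804 with a 95% interval from 0.723 to 0.896 (limma p = 0.0001409, adjusted p = 0.901). Without the 4 libraries it was -0.26 (p = 0.001373 in limma), which is under a fold of 1.2, so the gene no longer passed. It also stayed short of that threshold with quality weights (-0.24) and with surrogate variables (-0.17), at raw p values of 0.001222 and 0.004812. The medians of the sub-acute groups were 13.1 CPM in blast and 13.6 CPM in sham, with a log2 fold change of -0.03 (SE 0.06).

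ENSRNOG00000009951 ranged from 4.89 to 15.9 CPM (median 9.84) in chronic blast and from 10.3 to 24.5 CPM (median 13.7) in chronic sham animals. 12 of 14 blast animals lay below the sham median and 9 below every sham animal, while animals CB111 and CB124 of the blast group, both at 15.9 CPM, lay above the sham median. The log2 fold change was -0.56 (SE 0.15), a ratio of 0.678 with a 95% interval from 0.554 to 0.830 (limma p = 0.0002924, adjusted p = 0.901). With surrogate variables it was -0.36, and with the chronic animals fitted alone it was -0.56 (limma p = 0.001185, adjusted p = 0.999). Sub-acute animals had medians of 9.65 CPM in blast and 9.78 CPM in sham, near the chronic blast median and below the chronic sham median, and a log2 fold change of 0.02 (SE 0.13).

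**Figure D3:**
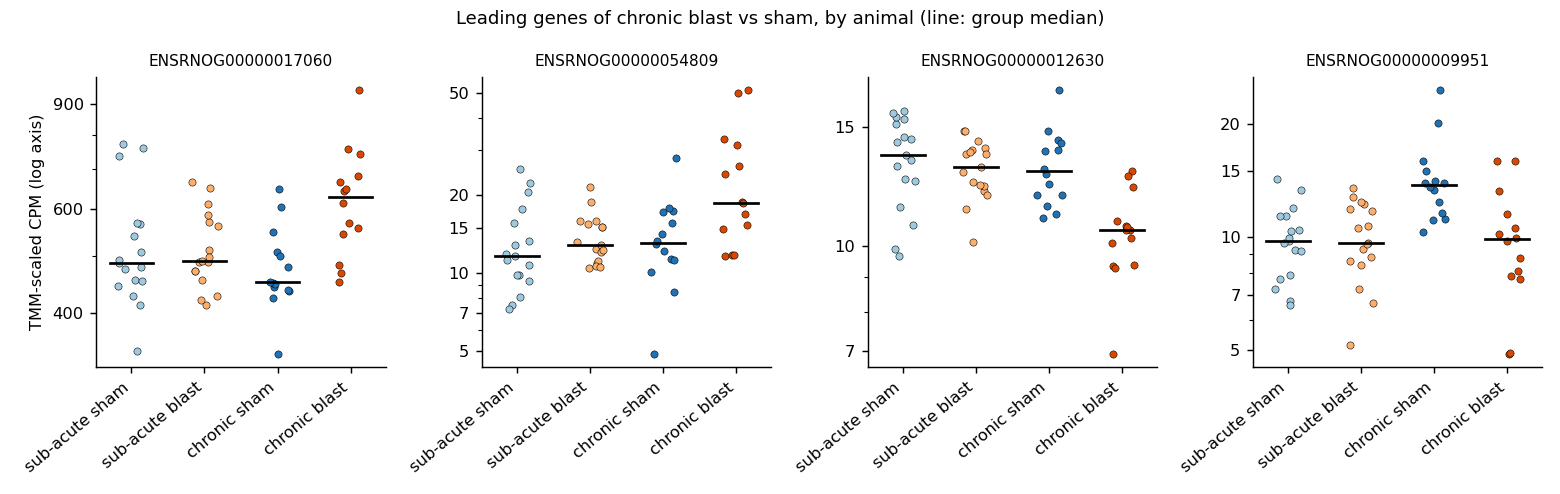
TMM-scaled CPM on a log axis for the 4 leading genes, with 1 point per animal in each of the 4 groups and a line at the group median. For ENSRNOG00000017060 and ENSRNOG00000054809 the chronic blast median (628 and 18.7 CPM) lies above the chronic sham median (451 and 13.1 CPM). For ENSRNOG00000012630 and ENSRNOG00000009951 it lies below (10.6 and 9.84 against 12.9 and 13.7 CPM), and the points of the groups overlap in every panel.

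The blast effect at the chronic time-point was compared with that at the sub-acute time-point, which rests on other animals. Of the 413 genes, 57.1% had a sub-acute log2 fold change of the same sign, against 52.5% over all genes tested. The genes higher in blast had a median log2 fold change of 0.51 at the chronic and 0.01 at the sub-acute time-point, and the genes lower in blast had medians of -0.43 and -0.03. The genes were chosen by their chronic values, and smaller medians in other animals would follow from that choice. The contrast of medians therefore does not show an effect particular to the chronic time-point. At the sub-acute time-point 200 genes passed both thresholds (1.21% of genes tested). This number and the chronic one do not rest on equal depth. Sub-acute libraries had median totals of 50123693 counts in sham and 54959799 in blast animals. The chronic medians were 42328495 and 37460121. 12 genes passed at both time-points, which is 2.91% of the chronic and 6% of the sub-acute genes, and 4 of the 12 had the same sign at both. The difference between the time-points was itself tested for every gene. 919 genes had a raw p under 0.05 (5.56% of genes tested), none had an adjusted p under 0.05 in limma, and the smallest adjusted p was 0.838. No edgeR or DESeq2 test of this difference passed adjustment either (smallest adjusted p = 0.660 and 0.296). The 4 leading genes had raw interaction p values between 0.004122 and 0.03278 and an adjusted p of 0.838, so none of them was shown to differ in its blast effect between time-points. They were picked by their chronic p, which rests on part of the same data, so these raw values cannot serve as support.

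A group of genes was very high in 1 blast animal, a limit of 5-fold having been set after the data were seen. 23 genes tested were at least 5-fold higher in a single chronic animal than in every other chronic animal, and 21 of these (91.3%) were highest in chronic blast animal CB135. The other 2 were highest in sham animals CS127 and CS144, with 1 gene each. In animal CB135 these 21 genes exceeded the next chronic animal by a median of 7.76-fold and by up to 40.1-fold on the scale of log2 CPM with a prior count of 2. For the most abundant of them the animal had 20045 counts, against 510 in the next chronic animal and at most 572 in any sub-acute animal. 19 of the 21 genes were also at least 5-fold above every sub-acute animal, and for 1 of the 21 a sub-acute animal reached or exceeded animal CB135. The library of CB135 was not among those that stood apart, with 46098756 counts and a median correlation of 0.973 with the other chronic libraries. Its PC3 score, 40.3, was the highest of the 28 chronic libraries. Among the 24 libraries not apart, it lay farthest from its group's median profile (root mean square over genes, 0.559 in log2 CPM).

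The number of genes called after adjustment depended on the treatment of outlying counts. DESeq2 with its default replacement of outlying counts called none. Without any treatment of outlying counts, it called 7 genes at an adjusted p under 0.05, of which 6 were higher in blast. All 6 had their highest count in animal CB135, which held between 84.1% and 93.2% of the counts of the 14 blast animals on each of them, and in voom their raw p ranged from 0.124 to 0.943. The other gene was ENSRNOG00000012630, with an adjusted p of 0.0469 in that DESeq2 fit and between 0.219 and 0.9999 in the 12 other alternatives. Its log2 fold change was -0.319 in DESeq2 with and without that treatment. Its highest count, in animal CS144, was 10.1% of the counts of the sham animals. Benjamini-Hochberg adjustment ranks all genes together, and the 6 genes high in CB135 were called beside it. Its call is thus not independent of those 6 genes. Of the 21 genes high in animal CB135, 1 passed both thresholds in voom. Without CB135, 427 genes passed both (2.58% of 16532 tested), 187 of them higher in blast and 240 lower.

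**Figure D4:**
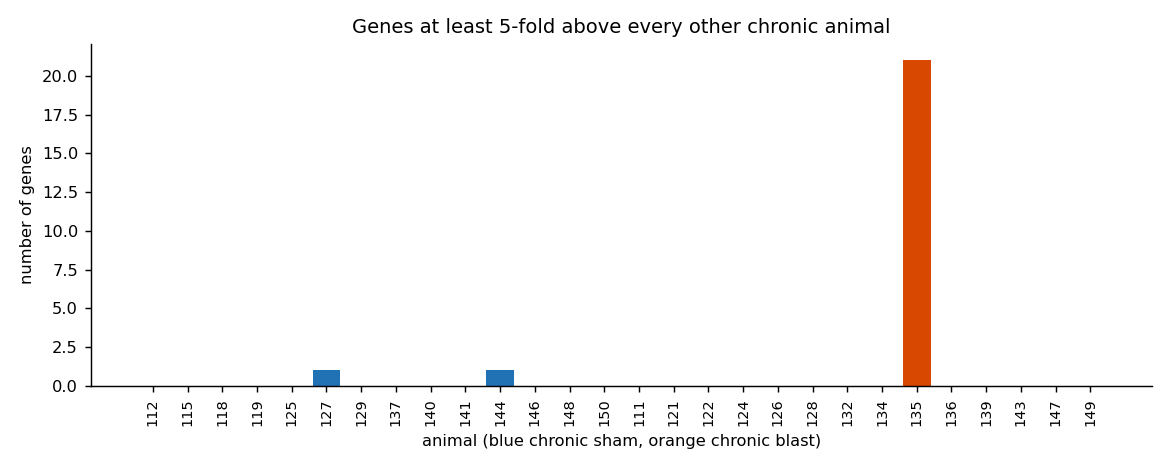
Number of genes tested that were at least 5-fold higher in an animal than in each of the other 27 chronic animals, by animal (blue bars chronic sham, orange bars chronic blast). Animal CB135 holds 21 of the 23 genes, and animals CS127 and CS144 hold 1 each.

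Variability between animals was compared with the ratio of the variance of log2 CPM among blast animals to that among sham animals, gene by gene, as a description with no test. The median ratio was 1.27, and 65.8% of genes had a ratio above 1. It was similar over the range of expression, with medians of 1.22, 1.26, 1.31 and 1.27 from the lowest to the highest quartile, and was 1.07 for the 100 most abundant genes, of which 54% lay above 1. Among removals of 1 animal, only that of CB149 brought the median ratio under 1, and those of CB149 and CS115 changed it most. Animal CB149 made up 24.2% of the summed squared deviations of the blast group and animal CS115 made up 28.4% of those of the sham group. Without animal CB149 the median ratio was 0.929, with 45.6% of genes above 1. Without animal CS115 it was 1.84, with 80.5% above 1. Leaving out any other animal gave between 1.17 and 1.404. Without both shallow libraries it was 1.38, with 70.1% of genes above 1, and without all 4 libraries that stood apart it was 1.52, with 72.7% above 1. The distance of each animal from the median profile of its own group, as a root mean square over genes in log2 CPM, was 0.510 ± 0.176 (SD, n = 14) in blast and 0.457 ± 0.187 (SD, n = 14) in sham, a difference smaller than the spread between animals (permutation test p = 0.454, adjusted p = 0.850). The group medians were 0.468 in blast and 0.383 in sham. The highest values were 1.04 in CB149 and 1.02 in CS115, which widened both SDs. The test was not repeated without these libraries, so it does not settle whether the other animals differ.

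**Figure D5:**
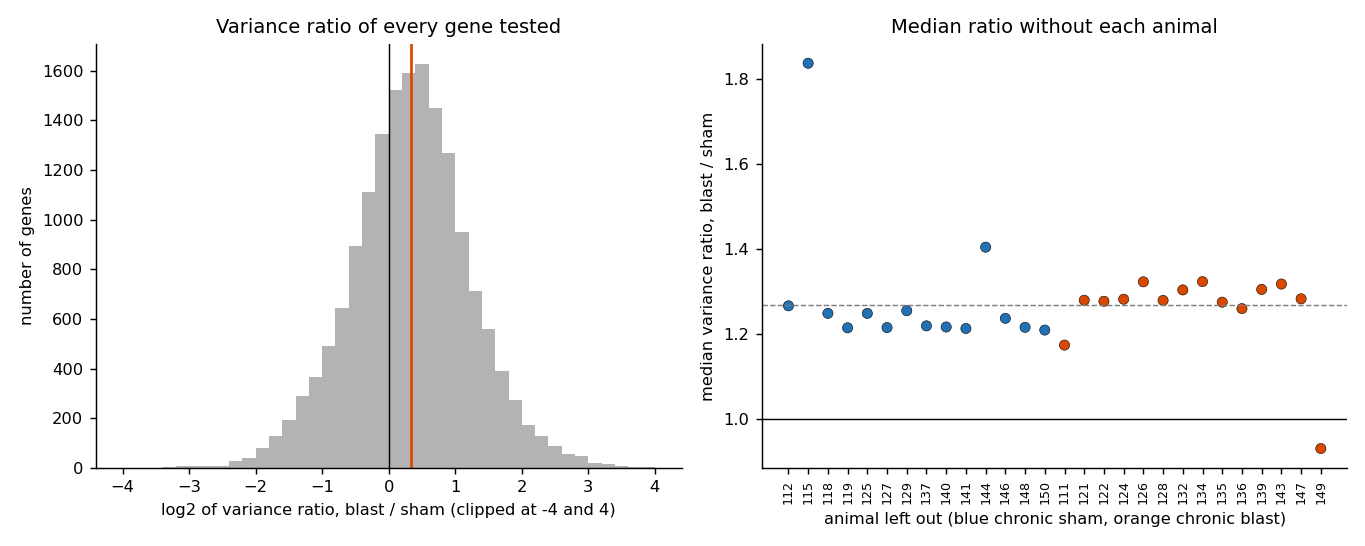
Left, number of genes by log2 ratio of the variance in chronic blast to that in chronic sham animals, with a black line at equal variance and an orange line at the median ratio of 1.27. Right, the median ratio with each animal left out in turn, blue for sham and orange for blast animals, with a dashed line at 1.27. It falls to 0.929 without animal CB149 and rises to 1.84 without animal CS115.

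The number of genes past both thresholds changed little without the shallow libraries, but the list did. Without the 2 libraries under 25000000 counts, 395 genes passed both thresholds (2.39% of 16498 tested), 179 of them higher in blast. Of the 395, 294 were among the 413 (71.2% of the 413 and 74.4% of the 395). Without all 4 libraries that stood apart, 308 genes passed (1.86% of 16569 tested, against 2.50% with all libraries), 167 of them lower in blast. Of the 308, 214 were shared (51.8% of the 413 and 69.5% of the 308). With edgeR's quasi-likelihood test 543 genes passed (3.28% of those tested) and 300 were shared. No gene passed adjustment in limma in either reduced set of libraries, with smallest adjusted p of 0.817 and 0.889.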

How the data were processed

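Libraries were rRNA-depleted and stranded, read as 2 x 50 bp. Per the labels and the methods of the study, the authors aligned reads with STAR 2.4.2a to Ensembl Rnor_6.0 and counted them per gene with featureCounts 1.4.3-p1. The deposited values are raw counts. The strand setting and the treatment of multi-mapping reads are not given in the sources used here, so overlapping genes and genes with near-identical copies are uncertain. 2 columns that match no sample were not used. Genes were filtered with edgeR 4.0.16 (filterByExpr), scaled by TMM and fitted with voom in limma 3.58.1 to the 4 group means over 62 animals, so that all groups share the estimate of spread. P-values were adjusted over 16535 genes. DESeq2 1.42.0 and sva 3.50.0 (9 surrogate variables) gave alternatives. Log2 CPM used a prior count of 2. Library measures were compared by two-sided permutation tests with 100000 resamples. The voom, edgeR and DESeq2 fits of the group means were tested on simulated counts. Every pair of libraries within a chronic group differed by more than sampling noise, with a chi-square averaging 15.2 or more over genes. The genes to be named (past both thresholds, the 2 of smallest p among those higher and among those lower) and the gene lists were chosen with earlier results of these data known. The lists could not be used, because 0 IDs were matched to a symbol of the GRCr8 gene table. The limit of 5-fold for genes high in a single animal and the correlation limit of 0.965 were chosen after seeing the data.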

Additional observations from a re-analysis of the deposited data

How the results depend on the processing

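Of the alternatives, 33 values of the gene numbers and the variance ratio stayed within the limits set for them while 10 went past them and 1 turned direction. The 413 genes (2.50% of those tested) became 894 (3.39%) with no filter on low counts, where 26364 genes were tested, and 275 (2.01%) with at least 10 counts in every library, where 13714 were tested. With the chronic animals fitted alone, 341 of 15802 genes tested passed (2.16%). The raw p of each of the 4 leading genes was then larger, between 0.0003545 and 0.005605 in limma. With surrogate variables 1.35% of genes passed, 88 of them lower in blast. Without the fold threshold it was 5.04%, and at 1.2 on the log2 scale 15 genes (0.0907%). The share higher in blast, 45.8%, was over 50% with edgeR (52.5%), DESeq2 (51.1%), sample quality weights (52.9%), no filter (58.5%) and surrogate variables (60.7%). No gene passed adjustment under any alternative except DESeq2 with no treatment of outlying counts, which gave 7, and the smallest adjusted p in the others ranged from 0.0641 with edgeR to 0.9999 with surrogate variables. The 919 genes with a raw interaction p under 0.05 (5.56% of 16535 tested) became 1584 with no filter, where 26364 were tested. The positive share of such genes, 54.8%, was 68.0% with edgeR, 70.3% with DESeq2 and 65.5% with no filter. It was under 50% with log2 library total as a covariate (48.2%) and with surrogate variables (42.1%). The median variance ratio of 1.27 was 1.43 with squared median absolute deviations and 1.52 without the 4 libraries that stood apart. It was 0.929 without blast animal CB149, a reversal, and 1.84 without sham animal CS115. The removal of single libraries or of the 4 and the treatment of outlying counts were chosen after seeing the data. Unless the number of genes tested or the libraries left out account for it, the cause was not tested. The 4 leading genes kept their direction in all alternatives run for them. These alternatives refit the counts from which the genes were picked, so the kept direction is not independent support. ENSRNOG00000012630 fell short of the fold threshold in 3 of 12 and ENSRNOG00000017060 in 1 of 12, with surrogate variables. The gene list medians were not run, because no ID was paired with a symbol. No paired analysis was possible because each animal gave 1 library and no number is common to blast and sham animals. Precision was lowest in the lowest quartile of expression, where the median standard error was 0.27, and the part of depth in it was not tested.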
